A study of Mus musculus with 4 samples.

Results

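The genes of the NF-κB subunits and of the IκB proteins that hold them in check were followed across 4 arrays of cultured mouse CD4 T cells. The set was chosen by name, with earlier results of these data known. It held 10 genes: the subunits Nfkb1, Nfkb2, Rel, Rela and Relb, and the IκB genes Nfkbia, Nfkbib, Nfkbid, Nfkbie and Nfkbiz. Of these, 9 of the 18749 genes on the array had a probe and 8 were well above background on all 4 arrays. All 8 rose more than 2-fold in both genotypes within 4 h of T cell receptor re-stimulation, by a median log2 difference of 3.03 in WT and 2.69 in cells labelled KO, where 13.2% and 12.4% of all measured genes rose as far as 2-fold. None of the 8 differed 2-fold between the genotype labels, where 8.08% of all genes did before and 9.02% after re-stimulation, shares that a count of 0 of 8 is close to.

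NF-κB is a family of dimeric transcription factors. In a resting T cell most of it is kept in the cytoplasm by IκB proteins, and signals from the T cell receptor and CD28 pass through adaptor proteins to the IκB kinase, which marks IκB for destruction and frees the dimer. Several of the genes that NF-κB then switches on encode its own subunits and inhibitors, so that the mRNA of an inhibitor can rise while its protein is being destroyed.

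The study asked what the loss of Bach2, a repressor of the basic leucine zipper family that binds AP-1-like sites, does to helper T cells. Naive CD4 T cells (CD44low CD62Lhigh CD25negative) were purified from the spleens of C57BL/6J mice, described in the methods as 8 to 12 weeks old. Cells labelled KO came from mice with both Bach2 alleles flanked by loxP sites (Bach2flox/flox) and a CD4-Cre transgene, in which the Cd4 promoter drives the recombinase in T cells, and the study describes its WT controls as carrying CD4-Cre. All cells, WT and KO alike, were given 3 μg/ml of anti-TCR-β and 1 μg/ml of anti-CD28 for 2 days. They were kept with 2.5 ng/ml of IL-2 for 3 more days, 5 days in all. This IL-2 dose comes from the sample records, and the methods of the study give a higher dose for its cultures. Cells called Th (-) were then taken directly, and cells called Th (+) after 4 h on immobilized anti-TCR-β without added IL-2. No cells were kept for 4 h without anti-TCR-β. The receptor signal, the end of added IL-2 and the handling therefore cannot be told apart in what is called the response to re-stimulation. There was 1 array for each of WT Th (-), KO Th (-), WT Th (+) and KO Th (+), so no difference below has a replicate error or a p-value, and how many mice each RNA came from is not given in the sources used here.

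The 4 one-colour arrays were on 1 slide with 1 scan time and had between 53.6% and 54% of their probes well above background. The 7 T cell markers were well above background on all 4. The labels were checked before the members were read. The probe for Bach2 gave signals of 2932 on WT Th (-), 2633 on KO Th (-), 3310 on WT Th (+) and 3080 on KO Th (+), which is no clear check of the genotype, and the probe's place relative to the deleted part is not given. The 4 samples are labelled female, yet 3 of 4 Y-linked transcripts stood well above background on each array labelled KO and on neither WT array. The methods of the study state that mice of both sexes were used for its in vitro work. Of 8 mast cell and basophil markers, 5 were well above background on each array labelled KO, against 1 on WT Th (-) and 0 on WT Th (+), with summed signals of 1058 and 896 against 73.6 and 60.6. The basophil protease Mcpt8 had 309 and 333 on the arrays labelled KO and was dim on both WT arrays, as were Cpa3, Fcer1a and Gata2, and Prss34 had 293 and 244 against 32.8 and 15.7. Ms4a2, Mcpt4 and Tpsb2 were dim on all 4. Of other markers, Itgax and Klra8 were well above background on the arrays labelled KO alone, and Adgre1 had 410 and 160 on them against 185 and 48.2 on WT. Sex and genotype label cannot be told apart here, and the part of these other cell markers in any difference between genotypes was not tested. The response of the WT cells rests on neither array labelled KO.

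Signals are intensities in arbitrary units. A log2 difference compares signals after each array was divided by its own 75th percentile, which was 436 and 434 on the WT and KO arrays before re-stimulation and 313 and 353 after it. This scaling adds 0.48 to every log2 response in WT and 0.30 to every log2 response in cells labelled KO, and changes every difference between genotypes by 0.01 before and -0.17 after re-stimulation. Values without it are given for the members where they change a sign, and for some of the other genes where they end a 2-fold call. As the only measure of scatter, the SD of a log2 difference between probes of one gene had a median of 0.0939 to 0.156 across the comparisons, which leaves out mice, cultures and hybridizations.

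Among the measured subunits, Nfkb2 and Relb rose most. Nfkb2, whose precursor protein is cut to give the DNA-binding subunit of the non-canonical pathway, had signals of 2222 on WT Th (-), 2577 on KO Th (-), 16742 on WT Th (+) and 16786 on KO Th (+). Both re-stimulated arrays lay far above both others, and the genotypes were close at each time. The scaled rise was 10.5-fold (log2 3.39) in WT and 8.02-fold (log2 3.00) in cells labelled KO, and 1.7% and 1.95% of genes rose as much or more. Relb, the usual partner of the Nfkb2 product, had signals of 2291, 2529, 14016 and 13819 in the same order of arrays and rose 8.54-fold in WT and 6.73-fold in cells labelled KO. Because RNA was taken from whole cultures, more RNA per cell and more cells with the RNA cannot be told apart.

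Rela, the transactivating subunit of the most common dimer, rose less. Its signals were 5166 on WT Th (-), 5895 on KO Th (-), 13992 on WT Th (+) and 16367 on KO Th (+), a rise of 3.78-fold in WT and 3.42-fold in cells labelled KO. A second Rela probe was printed as 10 spots on each array. Its spots ranged from 431 to 488 on WT Th (-), from 469 to 520 on KO Th (-), from 1020 to 1232 on WT Th (+) and from 1295 to 1470 on KO Th (+). The spots of the re-stimulated arrays did not overlap with those of the others, although spots of 1 array show printing and scanning error only. That probe gave log2 responses of 1.80 in WT and 1.78 in cells labelled KO, against 1.92 and 1.77 for the first. Rel, which encodes the lymphoid subunit c-Rel, had 1 probe, and it stayed dim on all 4 arrays, with signals of 3.22, 3.57, 3.17 and 5.87 where the lowest signals well above background were 14.5 to 17.2. From 1 dim probe, a gene that is off and a probe that fails cannot be told apart. No probe was matched to Nfkb1, which is not analysed here.

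The stretches before the transcription starts of Nfkb2 and Rela are shown because these subunits rose to different extents. Both are the 250 bases 5′ of a start annotated by RefSeq on GRCm38.p6, for Nfkb2 its first of 3 listed starts (chr19:46304487-46304736, plus strand) and for Rela its 1 listed start (chr19:5637291-5637540, plus strand), written 5′ to 3′ with matches to the κB consensus on either strand in capitals.
Nfkb2: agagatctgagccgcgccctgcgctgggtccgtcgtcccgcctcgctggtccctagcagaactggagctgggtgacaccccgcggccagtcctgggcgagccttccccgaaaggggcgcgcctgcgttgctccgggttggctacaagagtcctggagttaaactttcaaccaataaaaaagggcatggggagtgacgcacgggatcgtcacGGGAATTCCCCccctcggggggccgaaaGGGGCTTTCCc
Rela: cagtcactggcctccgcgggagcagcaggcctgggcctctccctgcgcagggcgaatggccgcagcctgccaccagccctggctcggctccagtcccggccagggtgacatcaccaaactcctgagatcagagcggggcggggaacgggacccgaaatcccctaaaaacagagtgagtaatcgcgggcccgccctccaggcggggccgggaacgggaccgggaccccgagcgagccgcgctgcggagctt
In the Nfkb2 stretch, overlapping matches on the plus and minus strands (GGGAATTCCC and GGGGAATTCC) lay from -39 to -29 of the start, and GGGGCTTTCC lay from -11 to -2. The Rela stretch held no match, which says only that these letters are not in this window.

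Of the inhibitors, Nfkbia showed the strongest rise. It encodes IκBα, the classical inhibitor that is destroyed and then made again within hours of a signal. Its signals were 8221 on WT Th (-), 8466 on KO Th (-), 58343 on WT Th (+) and 58702 on KO Th (+), so that the genotypes were nearly level before and after. The rise was 9.9-fold in WT and 8.54-fold in cells labelled KO, and no spot was saturated. Nfkbie, which encodes the cytoplasmic inhibitor IκBε, had signals of 815, 868, 4721 and 4840 in the same order and rose 8.08-fold and 6.86-fold. Nfkbib, which encodes IκBβ, had signals of 3090, 3330, 10661 and 9948 and rose 4.81-fold and 3.68-fold. For each of these inhibitors both re-stimulated arrays were higher than both others.

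The remaining IκB genes encode nuclear proteins that bind NF-κB on chromatin and can act as cofactors. Nfkbid, which encodes IκBNS, had signals of 693 on WT Th (-), 736 on KO Th (-), 4116 on WT Th (+) and 3676 on KO Th (+), a rise of 8.29-fold in WT and 6.15-fold in cells labelled KO. Nfkbiz, which encodes IκBζ, had signals of 402, 523, 1054 and 1262 and rose 3.66-fold and 2.97-fold. It had the smallest rise of the 8 members in cells labelled KO, shared the lowest range with Rela in WT, where the second Rela probe and quantile normalization put Rela lower, and was the member with the widest gap between genotypes before re-stimulation.

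**Figure D1:**
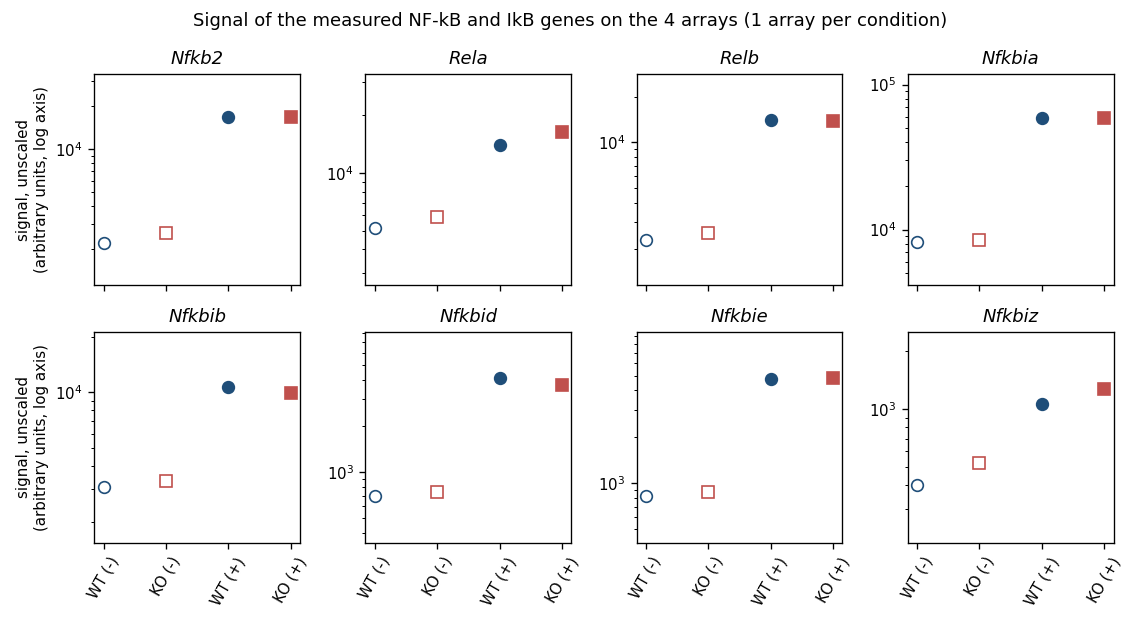
Unscaled signal (arbitrary units, log axes with a separate range for each gene) of the 8 measured NF-κB and IκB genes on the 4 arrays, with open symbols for Th (-), filled symbols for Th (+), circles for WT and squares for KO. In every panel both filled symbols lie above both open ones, and the gap between circle and square is small beside that rise.

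The stretches before the starts of Nfkbia (chr12:55492648-55492897, minus strand) and Nfkbie (chr17:45555450-45555699, plus strand) are shown in the same way, since they are the inhibitors with a single listed start and a κB match. Capitals also mark the AP-1 heptamer TGAGTCA or TGACTCA, the kind of site that Bach2 and AP-1 proteins share.
Nfkbia: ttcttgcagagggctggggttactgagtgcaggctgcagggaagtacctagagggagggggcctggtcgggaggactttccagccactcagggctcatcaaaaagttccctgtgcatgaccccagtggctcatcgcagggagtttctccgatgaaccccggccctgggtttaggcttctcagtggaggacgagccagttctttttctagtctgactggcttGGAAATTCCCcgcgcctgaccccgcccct
Nfkbie: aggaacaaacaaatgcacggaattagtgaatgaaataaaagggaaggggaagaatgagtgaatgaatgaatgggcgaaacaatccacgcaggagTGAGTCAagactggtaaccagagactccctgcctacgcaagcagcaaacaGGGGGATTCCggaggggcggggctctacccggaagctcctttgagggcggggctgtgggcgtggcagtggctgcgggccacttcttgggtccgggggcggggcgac
The Nfkbia match read GGGAATTTCC on the strand opposite to the gene, from -29 to -20. The Nfkbie stretch held GGGGGATTCC from -106 to -97 and TGAGTCA from -156 to -150, which reads TGACTCA on the other strand and is 1 site.

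Of the 10 members, 7 had 11 starts in the RefSeq promoter table. A κB consensus match lay in the 250 bases before 7 of the 11 starts, which belong to 5 of the 7 genes (Nfkb2, Rel, Nfkbia, Nfkbid and Nfkbie), and before neither Rela nor Nfkbib. The same match was found before 3.9% of all 32851 listed starts. The AP-1 heptamer was present for Nfkbie and for no other of the 7 genes, against 4.46% of all starts. Among the measured genes, the 4 with a κB match (Nfkb2, Nfkbia, Nfkbid and Nfkbie) rose by log2 3.01 to 3.39 in WT, and Rela and Nfkbib rose by 1.92 and 2.27. Nfkbid had its matches before the second of its listed starts alone. Relb and Nfkbiz, with no start listed, rose by 3.09 and 1.87. Rel, with a match, was dim on all arrays, so its response could not be read. A link between match and rise was not tested. Starts of 1 gene lie close together and are not independent, and a match is a description of the letters, not of binding.

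**Figure D2:**
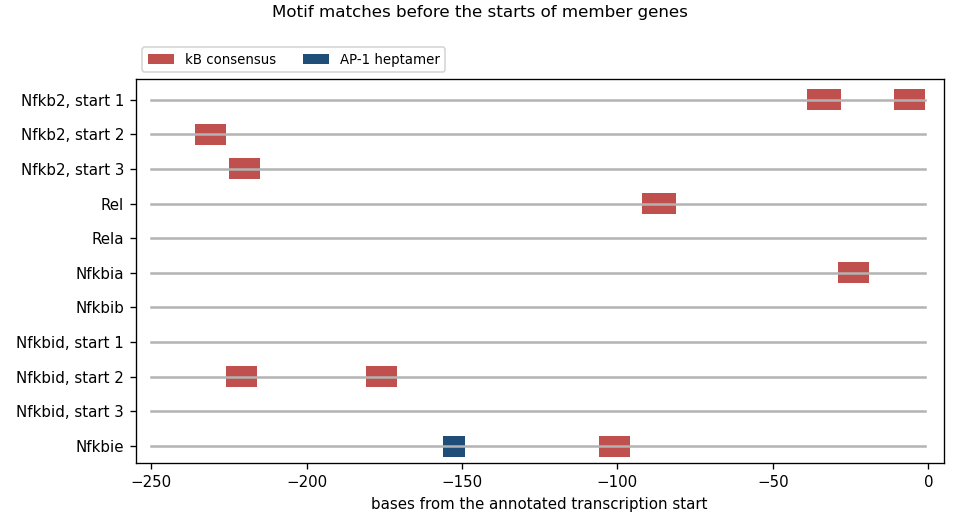
Position, in bases from the annotated transcription start, of κB consensus matches (red) and the AP-1 heptamer (blue) in the 250 bases before each of the 11 listed starts of 7 member genes. Matches lie before 7 starts, those of Nfkb2 and Nfkbia reaching closest to the start, and Rela and Nfkbib have none.

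Read as a set, 8 of 8 measured members were at least 2-fold higher after re-stimulation in WT, where 13.2% of all 12388 genes measured were, and 8 of 8 in cells labelled KO, where 12.4% of 12395 genes were. The median over all genes was -0.01 in WT and 0.01 in cells labelled KO. The members fell into 2 ranges. Nfkb2, Nfkbia, Relb, Nfkbid and Nfkbie rose by log2 3.01 to 3.39 in WT and 2.62 to 3.09 in cells labelled KO, and Nfkbib, Rela and Nfkbiz by 1.87 to 2.27 and 1.57 to 1.88. In WT the neighbours Nfkb2 and Nfkbia (3.39 and 3.31), and Rela and Nfkbiz (1.92 and 1.87), differed by less than the median spread between probes of 0.156. Without scaling the responses were 1.39 to 2.91 in WT and 1.27 to 2.79 in cells labelled KO, and all 8 still passed 2-fold in both.

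The genotype labels differed little. Before re-stimulation 0 of 8 members differed 2-fold, where 8.08% of all genes did (5.26% higher and 2.82% lower), and all 8 were slightly higher on the array labelled KO, by log2 0.05 (Nfkbia) to 0.39 (Nfkbiz), with a median of 0.13. The order from low to high was Nfkbia, Nfkbid, Nfkbie, Nfkbib, Relb, Rela, Nfkb2 and Nfkbiz. The differences of Nfkbia and Nfkbid lay within the spread between probes of 0.0939, and 14.8% of genes were as high as Nfkbiz or higher. With scaling to the median of all probes the difference of Nfkbia was -0.01.

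After re-stimulation 0 of 8 members differed 2-fold, where 9.02% of all genes did (5.17% higher and 3.85% lower). The scaled differences were below 0 for 6 members and above 0 for Rela (0.05) and Nfkbiz (0.09), with a median of -0.17 and the lowest value, -0.34, for Nfkbid. These signs follow the scaling. Without it the median was 0.01 and the values ran from -0.16 to 0.26, with Nfkb2 at 0.00, Nfkbia at 0.01 and Nfkbie at 0.04. Only Relb, Nfkbib and Nfkbid were below 0 with and without scaling, at -0.19, -0.27 and -0.34 with it and -0.02, -0.10 and -0.16 without.

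**Figure D3:**
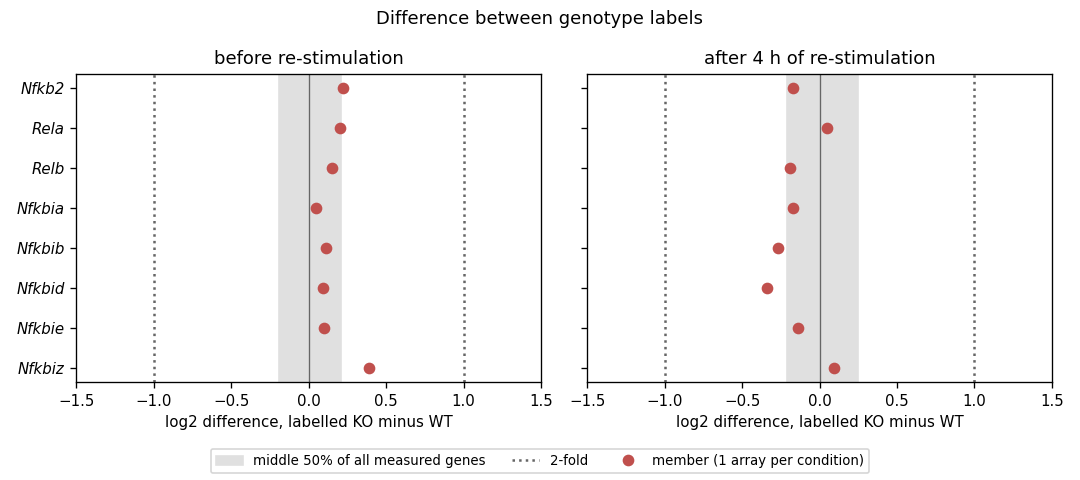
Log2 difference, labelled KO minus WT, of the 8 measured members before (left) and after (right) re-stimulation, each point from 1 array per condition. The shaded band holds the middle 50% of all measured genes (-0.19 to 0.21 and -0.21 to 0.25), the dotted lines mark 2-fold, and every member lies well inside the dotted lines.

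The rise was smaller in cells labelled KO than in WT for each of the 8 members. The difference of the responses ran from log2 -0.14 (Rela) to -0.43 (Nfkbid), with a median of -0.32, where the middle 50% of 10810 genes lay between -0.19 and 0.19 and 4.82% passed 2-fold either way. No member passed 2-fold. The second Rela probe gave -0.02. Of the 829 genes at least 2-fold higher in both genotypes, as all 8 members were, 63.9% had the smaller rise in cells labelled KO, with a median of -0.09. Of the 244 genes at least 4-fold higher in both genotypes, 65.6% did, with a median of -0.24. Without scaling 7 of 8 members had the smaller rise, from -0.25 to -0.03, and Rela had 0.04. These values rest on all 4 arrays, and no test of them was possible.

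**Figure D4:**
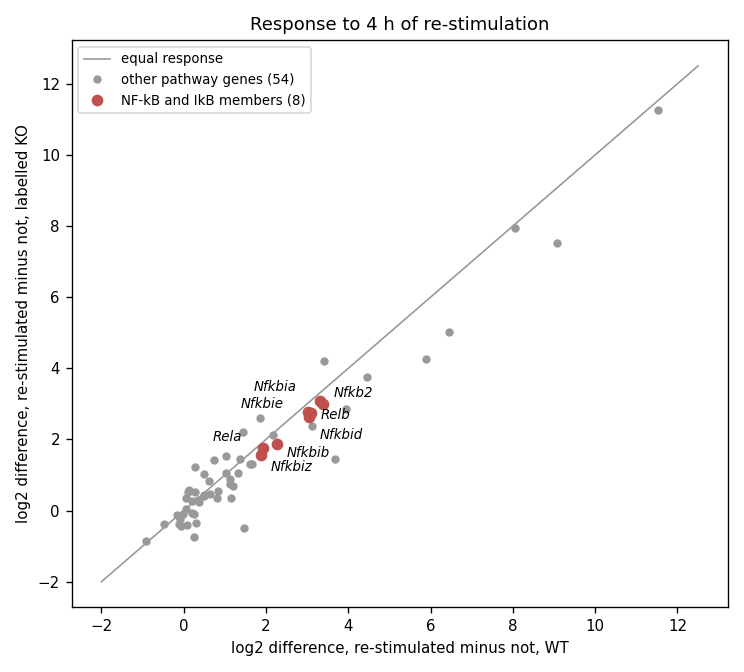
Log2 response to 4 h of re-stimulation in cells labelled KO (vertical axis) against WT (horizontal axis) for the 8 measured members (red) and 54 other genes of the pathway (grey), with a line of equal response. All 8 members lie just below the line, between 1.87 and 3.39 on the horizontal axis.

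Nfkb2, the member with the widest range over the arrays, was used to find genes of like pattern by the Euclidean distance between log2 values on the 4 arrays, each gene centred on its own mean. Of 10809 other genes well above background, the nearest were Tnfsf9 (0.093), Nfkbia (0.12), Mpzl3 (0.14), Cxxc5 (0.15) and Slc5a3 (0.16). Tnfsf9 encodes the ligand of the co-stimulatory receptor 4-1BB, and its log2 responses were 3.29 in WT and 2.92 in cells labelled KO. Relb was at rank 8, Nfkbie at 11 and Nfkbid at 18, and Nfkbib, Rela and Nfkbiz were at 150, 229 and 283.

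The rest of the pathway was read from 56 other genes, of which 54 were measured in each response. These lists too were chosen with earlier results of these data known. Of the 54 genes, 25 were at least 2-fold higher in WT and 23 in cells labelled KO, where 13.2% and 12.4% of all genes were. None was 2-fold lower, where 13.5% and 13% of all genes were. Without scaling 15 and 19 were higher. Between genotypes, 2 of 51 were higher and none lower before re-stimulation, where 5.26% and 2.82% of all genes were, and none of 54 higher and 3 lower after it, where 5.17% and 3.85% were. Of the genes that were higher, 16 of 25 in WT and 15 of 23 in cells labelled KO were known target genes. Genes dim on one array entered at a lower bound.

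Upstream, 2 of 8 kinases were 2-fold higher in WT and none in cells labelled KO, with medians of 0.31 and 0.08, and the shares of all genes were 13.2% and 12.4%. Ikbke, an IκB kinase relative, had signals of 680, 707, 1079 and 725 and log2 responses of 1.15 and 0.34. Map3k14, which encodes the NIK kinase of the non-canonical pathway, had 1.12 and 0.88. Both fell short of 2-fold in WT with scaling to the median of all probes and without scaling, where Ikbke had 0.67 and Map3k14 0.63, so that no kinase was higher in either genotype. With scaling to the reference genes Map3k14 passed 2-fold in cells labelled KO too, at 1.07. Without scaling 1 kinase was 2-fold lower in cells labelled KO. Of 11 adaptors, 2 were 2-fold higher in WT and 3 in cells labelled KO, and none lower, with medians of 0.27 and 0.42, close to the same shares. Malt1, a protease and scaffold of antigen receptor signalling, had log2 responses of 1.03 and 1.52, and Bcl10, its partner, had 1.03 and 1.06. Without scaling Malt1 had 0.55 and 1.22 and Bcl10 0.55 and 0.76, so that Malt1 in cells labelled KO was the 1 adaptor left past 2-fold, as with median scaling. Traf5, an adaptor of TNF receptor family members, had 0.27 in WT and 1.22 in cells labelled KO, and these became -0.21 and 0.92 without scaling.

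Among other inhibitors, Tnfaip3, which encodes the ubiquitin-editing enzyme A20 that ends NF-κB signals, had signals of 302 on WT Th (-), 299 on KO Th (-), 4769 on WT Th (+) and 3293 on KO Th (+). Its log2 response was 4.46 in WT and 3.76 in cells labelled KO, above that of every measured IκB gene. Of 13 ubiquitin editors and other inhibitors measured, 4 were 2-fold higher in WT and 5 in cells labelled KO, and none lower. Of all genes, 13.2% and 12.4% were higher and 13.5% and 13% lower. With median scaling, and likewise without scaling, 3 and 4 were higher and 1 was lower in each genotype. The others named were Tnip3 (at least 1.86 and 2.60), an A20-binding protein, Zc3h12a (1.67 and 1.31), an RNase that degrades cytokine mRNA, N4bp1 (1.20 and 0.69) and Tnip2 (0.73 and 1.41), another A20-binding protein. With normexp background correction, which raises low values, Tnip3 fell to 0.58 and 1.09 and Zc3h12a to 0.38 and 0.39, and without scaling N4bp1 had 0.72 in WT. Bcl3, an IκB relative that acts in the nucleus with dimers of the smaller subunits, had signals of 4939, 8993, 7705 and 12307. It was higher on the array labelled KO at both times, by log2 0.87 and 0.50, both under 2-fold. Its log2 response was 1.12 in WT, with 0.64 to 1.27 over the alternatives, and 0.75 in cells labelled KO.

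Of 20 known NF-κB target genes, 16 were at least 2-fold higher in WT and 15 in cells labelled KO, with medians of 2.03 and 1.89. None was 2-fold lower. Of all genes, 13.2% and 12.4% were higher and 13.5% and 13% lower. Without scaling 12 target genes were higher in WT and 14 in cells labelled KO. Il2, the T cell growth factor, rose from 17.5 to 37530 in WT (2987-fold) and from 5.72, not well above background, to 33743 in cells labelled KO, which is at least 2475-fold. Its WT Th (-) signal lay close to the lowest signal well above background on that array, 15.1, and with normexp its log2 responses were 8.99 and 8.84 in place of 11.54 and 11.27. Csf2, which encodes GM-CSF, had signals of 343, 601, 65138 and 120691 and log2 responses of 8.05 and 7.95. Cd83, an activation marker, was dim on both Th (-) arrays and rose at least 542-fold in WT and at least 182-fold in cells labelled KO, bounds that rest on the scaling to the 75th percentile and its floor. With normexp the log2 responses of Cd83 were 6.42 and 5.02 in place of 9.08 and 7.51.

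All 5 pathway genes past 2-fold between genotypes were target genes, a list that holds 20 of the 55 pathway genes with a probe. Before re-stimulation Bcl2a1b, an anti-apoptotic gene with near-identical copies that its probe may not separate, had signals of 815 on WT and 2222 on KO (log2 1.45), and Gadd45b, a stress-response gene, 536 and 1347 (1.33). Both then reached like signals in both genotypes, 50731 and 58319 for Bcl2a1b and 22707 and 20910 for Gadd45b. After re-stimulation Tnfaip2 had 138 on WT and 37.6 on KO (-2.05), Cd83 had 5878 and 2478 (-1.42), and Irf1, an interferon-regulated transcription factor, 26456 and 14158 (-1.08). With normexp the difference of Tnfaip2 was -1.13. Without scaling Irf1 had -0.90, under 2-fold. Tnip3 (39.2 on WT and 82.8 on KO) and Rnf11 (394 and 819), which are no members of the target list, were then past 2-fold. With scaling to the reference genes Irf1 also fell under 2-fold, and Tnip3 and Rnf11 passed it. Irf1 was the other way round before re-stimulation, with 13437 on WT and 24361 on KO (0.87). Of the pathway genes measured, 2 of 51 were higher before re-stimulation, where 5.26% of all genes were. After it 3 of 54 were lower, where 3.85% of all genes were.

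**Figure D5:**
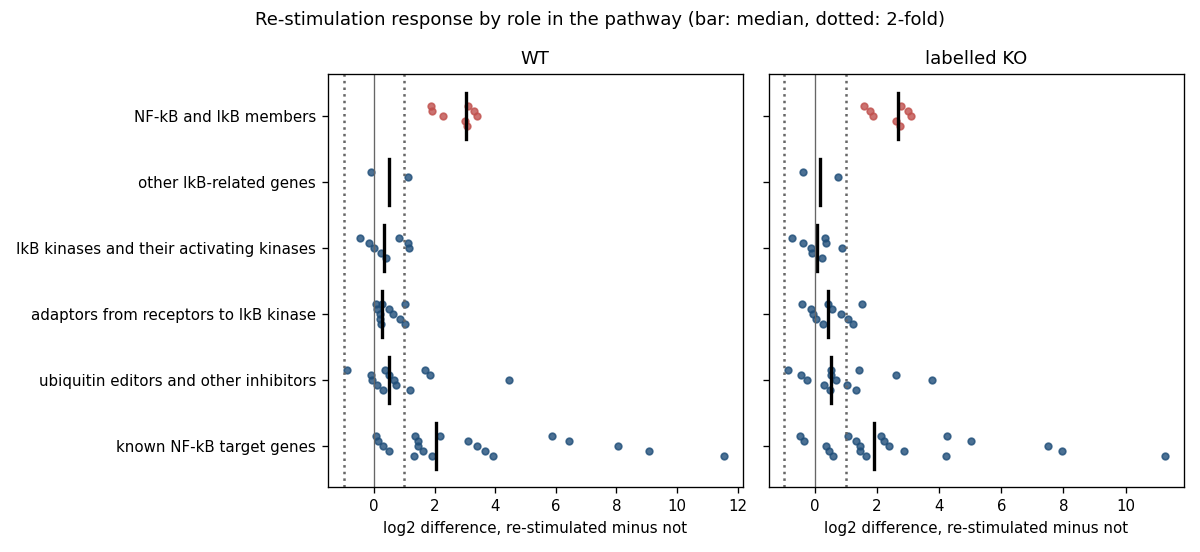
Log2 response to re-stimulation in WT (left) and cells labelled KO (right) for the measured members and 5 lists of other pathway genes, 1 point per gene, with bars at the medians and dotted lines at 2-fold. The members (medians 3.03 and 2.69) and the known target genes (2.03 and 1.89) lie mostly to the right of 2-fold, and most kinases and adaptors lie between the dotted lines.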

How the data were processed

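RNA of 4 CD4 T cell cultures was hybridised to one-colour Agilent arrays. The authors deposited an intensity per spot, with background subtracted and spatial trends removed by Feature Extraction (version 10.7.3.1 per the file headers), beside flags for spots well above background. A table of log2 values that the authors deposited holds the log2 intensity less the 75th percentile of its array, and between 41001 and 41026 of its 41173 probes were within 0.01 of the values used here. Each sample's group was taken from its labels.

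Flagged outlier spots (107 to 120 per array) were left out, log2 values of repeated spots were averaged, and each array was centred on the 75th percentile of its probes. Probes were named by transcript accession from a RefSeq table of GRCm38.p6 (27479, 66.7%), of which no coordinates of probes were used. Where a gene had several probes, the brightest was used. Comparisons of 2 arrays took genes that stood well above background on either. A dim value under the lowest value so detected on its array was raised to that value. Folds with a dim value are read as lower bounds. With 1 array per condition there was no test: genes were counted past 2-fold, a rule of size, beside the share of all genes measured. The number of arrays limits the precision.

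The members, the pathway lists and the rule for naming genes were chosen with earlier results of these data known. A gene of the adaptor list is not reported here and was left out of every list. The text names all members, Bcl3 and Tnfaip3, the up to 4 genes of each list with the largest difference past 2-fold in each comparison, and the 5 genes nearest to Nfkb2. The T cell and mast cell and basophil markers and 4 Y-linked genes were read as checks. Among other markers, 2 of 5 B cell markers, 1 of 5 myeloid and 1 of 4 NK cell markers were well above background on all 4 arrays, 0 of 3 dendritic cell markers were (those that moved with the genotype label are in the results), and Cd8a was on KO Th (+) alone. Promoter windows came from the RefSeq table, and the κB consensus was searched on both strands and, apart from it, TGAGTCA or TGACTCA, with no overlap between them in the members. The computation was tested on simulated data. Python 3.11.15, R 4.3.3 and limma 3.58.1 were used, limma for normexp and quantile normalization. Alternatives were other scalings, normexp, the authors' log2 table, other rules for several or dim probes and 3-fold. A further alternative, with arrays left unscaled, was added after seeing the data.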

Additional observations from a re-analysis of the deposited data

Results flagged for a closer look

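The members and the other pathway genes named in the text were screened, and no others. Several genes lay on opposite sides of 0 in contrasts that share no array, by more than the median spread between probes on each side. None of these differences could be tested with 1 array per condition. The log2 difference between genotypes, labelled KO minus WT, was 0.22 before and -0.17 after re-stimulation for Nfkb2, 0.15 and -0.19 for Relb, 0.11 and -0.27 for Nfkbib, and 0.10 and -0.14 for Nfkbie. The scaling alone moves each of the second values by -0.17. Without it they were 0.00, -0.02, -0.10 and 0.04, all within the spread between probes of 0.114. None of these members would then have been flagged. Among the other pathway genes so screened the values were 1.33 and -0.29 for Gadd45b, 0.87 and -1.08 for Irf1, and -0.71 and 0.23 for Traf5. The response of Irf1 to re-stimulation was 1.46 in WT and -0.48 in cells labelled KO.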

How the results depend on the processing

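All 8 measured members stayed at least 2-fold higher after re-stimulation in both genotypes, and none passed 2-fold between genotypes, in every alternative tried, the 3-fold rule apart, under which Nfkbiz missed the count in cells labelled KO. Of 400 member values recomputed, 322 moved by less than the spread between probes, 74 moved further, and 4 moved further and reached or passed 0. Many of the 322 could hardly move. The rules for dim probes cannot change these 8 members, which were well above background on all 4 arrays. The authors' table holds nearly the same values, and averaging over probes can change Rela alone. These 4 were without scaling: after re-stimulation Nfkb2 0.00, Nfkbia 0.01 and Nfkbie 0.04, and the difference of the responses of Rela, 0.04. By less than the spread, Nfkbia before re-stimulation also turned to -0.01 with median scaling and Rela after it to -0.00 with quantile normalization. Without scaling the member medians were 0.01 after re-stimulation, 2.55 for the WT response and 2.39 for the KO response. They were 2.74 and 2.42 with scaling to the median of all probes and 2.78 and 2.50 with normexp. With scaling to 6 reference genes they were -0.05 after re-stimulation and 2.87 for the KO response.

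For the other pathway genes, the number lower in the WT response was 1 with median scaling, with normexp and without scaling, and the number lower in the KO response 1 with median scaling and 2 without scaling, against 0 in the values reported. Without scaling 15 were higher in the WT response, and 2 were higher on KO after re-stimulation, as with the reference genes. With no filter and no floor 1 was lower before re-stimulation. At 3-fold the counts were 0 higher before, 1 lower after, 15 higher in the WT response and 13 in the KO response. The median of the adaptors in WT was -0.02 with median scaling and -0.21 without, that of the kinases in WT -0.17 without, and that of the other IκB-related genes in KO -0.08 and -0.12. Traf5 in WT was -0.02 and -0.21.

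Median scaling moved the median of all genes by -0.30 in WT and -0.27 in KO, and no scaling by -0.48 and -0.30. Of genes past 2-fold in these responses, 49.3% and 48.9% were higher, and this split was 29.1% and 30.8% with median scaling, 20.6% and 29% without, 60.2% and 62.6% with the reference genes. Between genotypes after re-stimulation it was 57.3%, and 70.5% without scaling. No paired analysis was possible because each condition had 1 array. No replicate could be left out.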
